A study of Mus musculus with 26 samples.

Results

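Group 2 innate lymphoid cells (ILC2s) of the mouse lung were examined here for 8 genes of neuropeptide signaling: Nmur1, Calca, Calcrl, Ramp1, Ramp2, Ramp3, Vipr1 and Vipr2. The genes were taken by the symbol of their Ensembl identifier, and they are 8 of the 55401 gene identifiers in the count tables. No adrenergic receptor is among them. The data are bulk RNA-seq read counts per gene from 26 libraries in 2 experiments. One used ILC2s sorted from the lungs of unchallenged, untreated female wild-type mice of C57BL/6J (n = 3) and of CC030/GeniUnc, a Collaborative Cross recombinant inbred strain hereafter CC030 (n = 3). The other used ILC2s of 5 wild-type CC030 mice, cultured at 3000 cells per well with IL-33 and TSLP (each 10 ng/mL) and human IL-2 (100 U/mL). Cells of each mouse received DMSO vehicle or 10 µM AR420626, an agonist of the short-chain fatty acid receptor FFAR3, and were collected on day 2 or day 6, which gave 5 libraries in each of 4 groups. The 2 experiments used different sort gates (CD25 and ICOS for the unchallenged mice, ST2 for the cultured cells), so levels are not compared between them. By the study's methods, each naive library came from a separate mouse.

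Neuropeptides released by sensory, enteric and autonomic neurons, and by pulmonary neuroendocrine cells, act on lymphoid cells through G-protein-coupled receptors. Nmur1 encodes a receptor of neuromedin U, a peptide known to stimulate cytokine production by ILC2s. Calca encodes calcitonin and calcitonin gene-related peptide (CGRP), and the CGRP receptor is a complex of the 7-pass protein CALCRL with the single-pass protein RAMP1. With RAMP2 or RAMP3, CALCRL forms receptors for adrenomedullin instead. Vipr1 and Vipr2 encode VPAC1 and VPAC2, the shared receptors of vasoactive intestinal peptide and PACAP.

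Promoter sequences are shown first for Ramp1 and Calca, the members with the highest levels in C57BL/6J, and for Nmur1, which had counts in C57BL/6J and none in CC030, from 250 bases before to 50 bases after the annotated start, as RefSeq gives them on GRCm38.p6. Capitals mark the core of the cAMP response element, TGACG, or its reverse complement CGTCA where it lies on the other strand. They also mark a motif of GATA factors, GATAA, or its reverse complement TTATC, so that both motifs were searched on both strands. No match of one motif overlapped a match of the other in these windows.
Ramp1 promoter, chr1:91179572-91179871, plus strand: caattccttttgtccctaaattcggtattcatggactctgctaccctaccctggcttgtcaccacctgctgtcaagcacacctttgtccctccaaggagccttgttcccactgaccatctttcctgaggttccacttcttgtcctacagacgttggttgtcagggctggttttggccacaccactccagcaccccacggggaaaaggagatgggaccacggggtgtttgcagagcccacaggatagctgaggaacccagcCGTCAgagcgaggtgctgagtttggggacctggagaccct
Calca promoter, chr7:114636308-114636607, minus strand: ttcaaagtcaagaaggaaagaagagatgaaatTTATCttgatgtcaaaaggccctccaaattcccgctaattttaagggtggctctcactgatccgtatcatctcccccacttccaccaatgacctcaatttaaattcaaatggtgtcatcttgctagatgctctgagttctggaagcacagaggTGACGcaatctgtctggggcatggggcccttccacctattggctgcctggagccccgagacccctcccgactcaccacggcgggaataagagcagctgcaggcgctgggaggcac
Nmur1 promoter, chr1:86389312-86389611, minus strand: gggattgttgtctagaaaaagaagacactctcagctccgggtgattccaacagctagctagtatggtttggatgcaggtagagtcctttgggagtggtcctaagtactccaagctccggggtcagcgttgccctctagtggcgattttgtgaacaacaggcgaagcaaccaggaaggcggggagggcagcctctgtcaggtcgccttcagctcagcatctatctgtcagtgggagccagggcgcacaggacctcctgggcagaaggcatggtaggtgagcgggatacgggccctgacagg
Nmur1 promoter, chr1:86388092-86388391, minus strand: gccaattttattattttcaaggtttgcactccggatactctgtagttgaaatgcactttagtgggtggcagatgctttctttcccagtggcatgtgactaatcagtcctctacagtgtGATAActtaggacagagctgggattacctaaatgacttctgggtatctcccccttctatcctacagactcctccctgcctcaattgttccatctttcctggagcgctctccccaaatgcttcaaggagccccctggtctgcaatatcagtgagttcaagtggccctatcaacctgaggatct
The Ramp1 window held 1 TGACG match and no GATAA match, and the Calca window held 1 of each. Of the 2 starts annotated for Nmur1, the first held neither motif and the second held 1 GATAA match. Of 32851 promoters of the same length, 20.8% held TGACG and 25.4% held GATAA on either strand, so such matches are common. Promoters were given for 7 of the 8 genes. The remaining windows of Calcrl, Ramp3 and Vipr2 held no match, and that of Vipr1 held 1 TGACG match. These are matches of letters and not evidence of binding.

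The libraries of the 2 strains differed widely in depth and in what they held. The C57BL/6J libraries had 13533363 to 15234305 counts in genes and the naive CC030 libraries 1324595 to 1524751, whereas the cultured libraries had 227445 to 5320028. Between 15946 and 16553 genes had a count in a C57BL/6J library, against 43527 to 46111 in a naive CC030 library. The summed level of 13 ILC2 markers, among them Gata3, Il1rl1 and Il7r, was 10410 to 11904 CPM (counts scaled to the library total in genes) in C57BL/6J but 287 to 318 CPM in naive CC030 and 71.9 to 377 CPM in the cultures, although every library is labelled ILC2. The CC030 reads were aligned to an mm9-based pseudogenome and then converted to mm10 positions, whereas C57BL/6J reads were aligned to mm10 directly. For CC030, a gene name below therefore stands for the counts listed under that name, and a check of gene positions is given with the cultured cells. C57BL/6J replicate 3 also stood apart. Its summed level was 11364 CPM for 5 epithelial markers (56.1 and 29.3 CPM in replicates 1 and 2), 970 CPM for macrophage and neutrophil markers (0.148 and 12.8 CPM) and 124 CPM for endothelial markers (8.50 and 12.2 CPM). The epithelial sum was mostly Sftpc, with 1, 4 and 172153 counts in replicates 1 to 3, whereas Krt8 had 0, 0 and 47. The macrophage and neutrophil sum was mostly Lyz2, with 1, 167 and 14729 counts. Csf1r had 0, 16 and 52 counts, Adgre1 had 1, 1 and 0, and Marco, S100a8 and S100a9 had none.

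In naive C57BL/6J ILC2s the CGRP receptor partner and the CGRP gene led the group. Ramp1 (chr1:91179822-91225196, plus strand of GRCm38, as are all positions below) had 28549, 33820 and 19879 counts in replicates 1 to 3, or 2110, 2346 and 1305 CPM. The mean was 1920 ± 546 CPM (SD, n = 3), and per kb of exon, the scale on which genes are compared, it was 635 ± 181 CPM. At that level Ramp1 exceeded 99.6% of 21897 protein-coding genes. Calca (chr7:114631478-114636357, minus strand) had 3567, 9125 and 3890 counts, or 264, 633 and 255 CPM. Replicate 2 was the high library and the other two were close to each other. The summed mast cell and basophil markers were also highest in replicate 2, at 413, 667 and 205 CPM in replicates 1 to 3. That sum followed Cpa3, with 5107, 9407 and 3031 counts, whereas Fcer1a had 481, 206 and 96 counts, highest in replicate 1. Ms4a2, Mcpt8 and Cma1 were at 0. The summed T cell markers were at 826 to 999 CPM, mostly Cd3g (7286, 10585 and 4890 counts) and Lat (2788, 3466 and 7637 counts). Trac had 786, 210 and 1 counts, Cd3d had 1270, 57 and 23, and Cd8a was at 0. The part of other cell types in the Calca value was not tested. Its level was 228 ± 128 CPM per exonic kb, above 98.6% of protein-coding genes. On that scale every library of Ramp1 lay above every library of Calca, but scaled by the longest transcript their ranges overlapped. Reads over Calca come from the gene as a whole, so that its calcitonin and CGRP transcripts were not told apart.

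The other partner proteins were lower. Ramp3 (chr11:6658521-6677475, plus strand) had 1057, 1156 and 2270 counts, or 78.1, 80.2 and 149 CPM, and its level of 74.2 ± 29.2 CPM per exonic kb lay below that of Calca in every library. An opposite-strand gene, Gm11978, shares 101 bp of the Ramp3 exons, and how the counting treated strand is not stated. Ramp2 (chr11:101246028-101259546, plus strand) had 136, 0 and 1708 counts, or 10.0, 0 and 112 CPM, so that a single library carried most of them. That library is replicate 3, which also had the high Sftpc, Lyz2 and endothelial marker values. The part of other cell types in the Ramp2 value was not tested. Ramp2 also shares 1103 bp of exon with Vps25 on the same strand, so its count is uncertain. Calcrl (chr2:84330626-84425411, minus strand), the receptor subunit common to all 3 partners, had 344, 848 and 520 counts, or 25.4, 58.8 and 34.1 CPM. Its level of 8.08 ± 3.55 CPM per exonic kb was far under that of Ramp1, and the libraries of the 2 genes did not overlap.

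Nmur1 (chr1:86386303-86426228, minus strand), the neuromedin U receptor, had 388, 283 and 2223 counts, or 28.7, 19.6 and 146 CPM. It was detected in all 3 libraries, and replicate 3 was again the highest. Its mean of 38.2 CPM per exonic kb had an SD of 41.6, and without replicate 3 it was 14.2 CPM per exonic kb. The part of the other cell types' RNA in the replicate 3 value was not tested. Vipr1 (chr9:121642716-121672954, plus strand) had 0 counts in each library, and a count of 0 allows up to 0.209 CPM on average over the 3 libraries. Vipr2 (chr12:116077726-116146261, plus strand) had 111, 490 and 876 counts, or 8.20, 34.0 and 57.5 CPM. Of the receptors of vasoactive intestinal peptide, the counts of C57BL/6J were therefore those of Vipr2.

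The order of the levels per exonic kb was Ramp1, Calca, Ramp3, Nmur1, Ramp2, Calcrl, Vipr2 and Vipr1. The ranges of 3 libraries did not overlap between Ramp1 and Calca, between Calca and Ramp3, or between Vipr2 and Vipr1. The ranges of all neighbours from Ramp3 down to Vipr2 overlapped. Within libraries, Ramp3 was above Nmur1 and Nmur1 above Ramp2 in each of the 3. Ramp2 was above Calcrl in 1 library and Calcrl above Vipr2 in 2. In replicate 2 Calcrl (12.0 CPM per exonic kb) was also above Nmur1 (11.6). The order from Nmur1 to Vipr2 is therefore not fixed by these libraries.

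**Figure D1:**
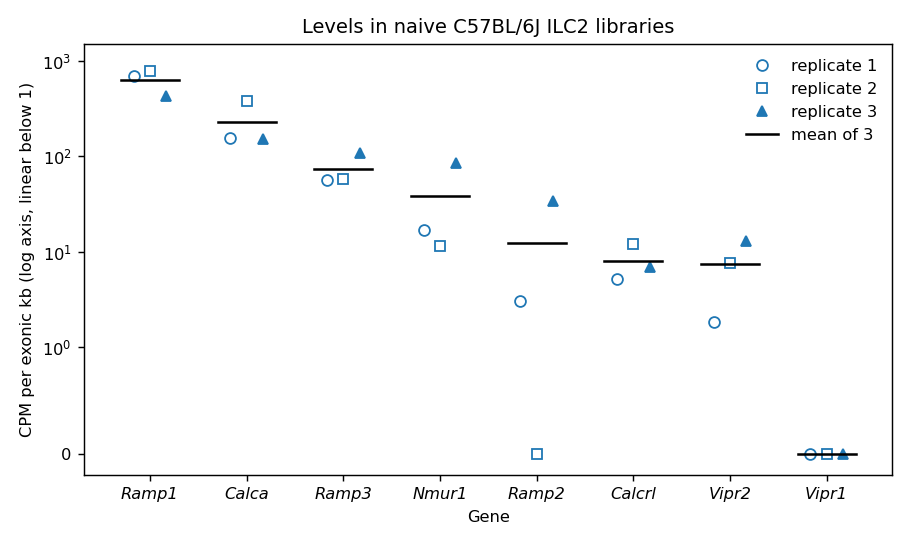
Levels of the 8 genes in each naive C57BL/6J library, in CPM per exonic kb on a log axis that is linear below 1. Symbols are libraries and bars are means of 3. Ramp1 and Calca stand above the rest, replicate 3 (filled) is the highest for Nmur1, Ramp2, Ramp3 and Vipr2, and Vipr1 is at 0.

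Related genes of the pathway were read from the same C57BL/6J libraries. Of 13 other ligand genes, 10 had no count, among them Nmu, Vip, Adcyap1, Calcb and Tac1. Only Nmb, the neuromedin B gene, had at least 10 counts in every library, with 999, 1079 and 606 counts and 79.2 ± 25.2 CPM per exonic kb. Adm, the adrenomedullin gene, had 0, 4 and 95 counts. Of 19 other receptor genes for peptides, acetylcholine and catecholamines, 12 had no count, and no gene had 10 counts in every library. Gpr35 had 0, 32 and 0 counts. Among partners and signal transducers, 27 of 34 had at least 10 counts in every library. The highest per exonic kb was Rgs2, a regulator of G-protein signaling (770 ± 79.5 CPM per exonic kb), followed by Prkar1a, a regulatory subunit of protein kinase A, with 80.9 ± 53.8. Gnas, which encodes the stimulatory G protein that couples receptors to adenylyl cyclase, was at 74.9 ± 50.9 CPM per exonic kb, and Rgs1 at 70.3 ± 15.5. Replicate 3 was the high library for Prkar1a (3601, 2452 and 9329 counts) and Gnas (6761, 7479 and 22773 counts). Without it they were at 50.5 and 45.5 CPM per exonic kb and Rgs1, at 78.3, was above both. Of 13 genes for making and degrading peptides, Pcsk1, a prohormone convertase, was the highest at 41.9 ± 12.0 CPM per exonic kb, with 2392, 4444 and 3353 counts. The granule genes Chga, Chgb and Scg5 had no count. The summed level of 8 neuroendocrine and neuronal markers was 1.51 to 7.32 CPM, and 5 of them, Chga, Chgb, Snap25, Tubb3 and Insm1, were at 0 in all C57BL/6J libraries in which Calca was at 255 CPM or more.

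Comparison of the naive strains asks how the CC030 counts differ from those of C57BL/6J. In all, 4 of the members were called lower and 1 higher in CC030, where 12.2% of all genes tested were called lower and 64.1% higher. Nmur1 and Vipr1 are among these calls, and their directions were fixed by having no count in 1 strain. For Ramp1 the CC030 libraries had 41, 32 and 30 counts, or 31.0, 21.3 and 19.7 CPM, which is 80.0-fold below the C57BL/6J mean. Calca had 29, 16 and 21 counts, or 21.9, 10.7 and 13.8 CPM, a 24.9-fold lower mean. Ramp3 had 13, 5 and 15 counts, or 9.81, 3.33 and 9.84 CPM, a 13.4-fold lower mean. No library of one strain overlapped the other for these 3 genes.

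Nmur1 had 0 counts in all 3 naive CC030 libraries and in all 23 CC030 libraries of the series. With a floor of 3 counts per library, the naive CC030 mean was at least 31.2-fold lower than that of C57BL/6J, and at least 11.6-fold lower without C57BL/6J replicate 3. Of 17519 protein-coding genes with at least 1695 bp of exon, the length of Nmur1, 396 (2.26%) had no count in any CC030 library. The median such gene had 135 counts over the 3 naive CC030 libraries. Of the 396 genes, 28 had a C57BL/6J level as high as that of Nmur1. Vipr1 went the other way, with 77, 28 and 53 counts (58.1, 18.7 and 34.8 CPM), at least 178-fold above the C57BL/6J floor.

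On the log2 scale of edgeR's quasi-likelihood test, CC030 minus C57BL/6J, Ramp1 was at -7.56 (SE 0.56, adjusted p = 0.000446), Calca at -5.88 (SE 0.64, adjusted p = 0.00046) and Ramp3 at -4.90 (SE 0.56, adjusted p = 0.00046). Nmur1 passed with adjusted p = 0.0011 and Vipr1 with adjusted p = 0.000511. The fitted sizes of these last genes depend on the prior count. Nmur1, without a count in CC030, and Vipr1, without a count in C57BL/6J, each entered the test through the other strain alone. Their directions were fixed before the test. Over all genes, 27122 of 35551 tested were called, or 76.3%, with 64.1% higher and 12.2% lower in CC030, and the median log2 difference was 7.03. The 5 calls among the 8 members, 4 of them lower, are to be read against those shares, and the 8 members had a median of -3.24. The split depended on the filter. Among the 7223 genes with 10 counts or more in each of the 6 libraries, 1635 were called higher and 1938 lower in CC030 and the median was 0.02. Of the 4 members in that set, 2 were called lower, Ramp1 at -6.74 (SE 0.59) and Calca at -5.06 (SE 0.59), and Calcrl and Vipr2 were not called. The libraries of the strains did not overlap for 6 members, against 69.9% of 50300 genes with a count. For 4 members C57BL/6J lay wholly above CC030, against 6.58% of genes, and for 2 members CC030 lay wholly above, against 63.3%.

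The remaining 3 genes did not pass. Calcrl had 68, 49 and 72 counts in CC030 (51.3, 32.7 and 47.2 CPM), within the range of C57BL/6J, and its log2 difference was -1.07 (SE 0.51, adjusted p = 0.0883 in edgeR). It passed without C57BL/6J replicate 1 (-1.61, adjusted p = 0.0408) or replicate 3 (-1.68, adjusted p = 0.0159), and was 0.20 when scaled by total counts, a setting chosen after seeing the data. Ramp2 had 43, 43 and 32 counts (32.5, 28.7 and 21.0 CPM), all inside the C57BL/6J range. Its log2 difference was -1.58 (SE 1.70, adjusted p = 0.42 in edgeR), but -2.15 without C57BL/6J replicate 2 (adjusted p = 0.0402) and 0.81 without replicate 3. Vipr2 had 129, 138 and 176 counts (97.4, 92.0 and 115 CPM), all above the C57BL/6J libraries, yet its TMM-scaled log2 difference was 0.48 (SE 0.62, adjusted p = 0.499 in edgeR). It was 1.14 in DESeq2, 1.66 under scaling by total counts (adjusted p = 0.0527 in edgeR) and 1.32 under the stricter filter (adjusted p = 0.0632 in edgeR), but -0.15 without C57BL/6J replicate 1. In CC030 the members other than Nmur1 and Vipr2 lay between 5.55 and 9.17 CPM per exonic kb, around the median of protein-coding genes, 7.15, whereas Vipr2 was at 22.8. Because markers of ILC2s were also lower in CC030 (13 of 13 markers called lower, median log2 difference -5.88), the strain difference at a member and a difference in what the counts under each name hold cannot be told apart.

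The pathway lists were counted in the same comparison. Over all genes tested, 64.1% were called higher and 12.2% lower in CC030. Genes at 0 in every C57BL/6J library, 10 of 13 ligand genes and 12 of 19 other receptor genes, entered the test through CC030 alone. Such genes could only be called higher. Of 13 other ligand genes, 11 were called higher in CC030 and 1 lower, with a median log2 difference of 8.27 against 7.03 for all genes tested. Nmb was the one lower, at -4.29 (SE 0.57, adjusted p = 0.00046 in edgeR). Of 19 other receptor genes, 18 were higher and none lower, with a median of 9.04. Of 34 partners and transducers, 8 were higher and 13 lower, with a median of -0.17. Rgs2 was at -9.25 (SE 0.72) and Gnas at -4.52 (SE 0.50). Of 13 processing genes, 6 were higher and 2 lower, with Pcsk1 at -4.01 (SE 0.42).

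**Figure D2:**
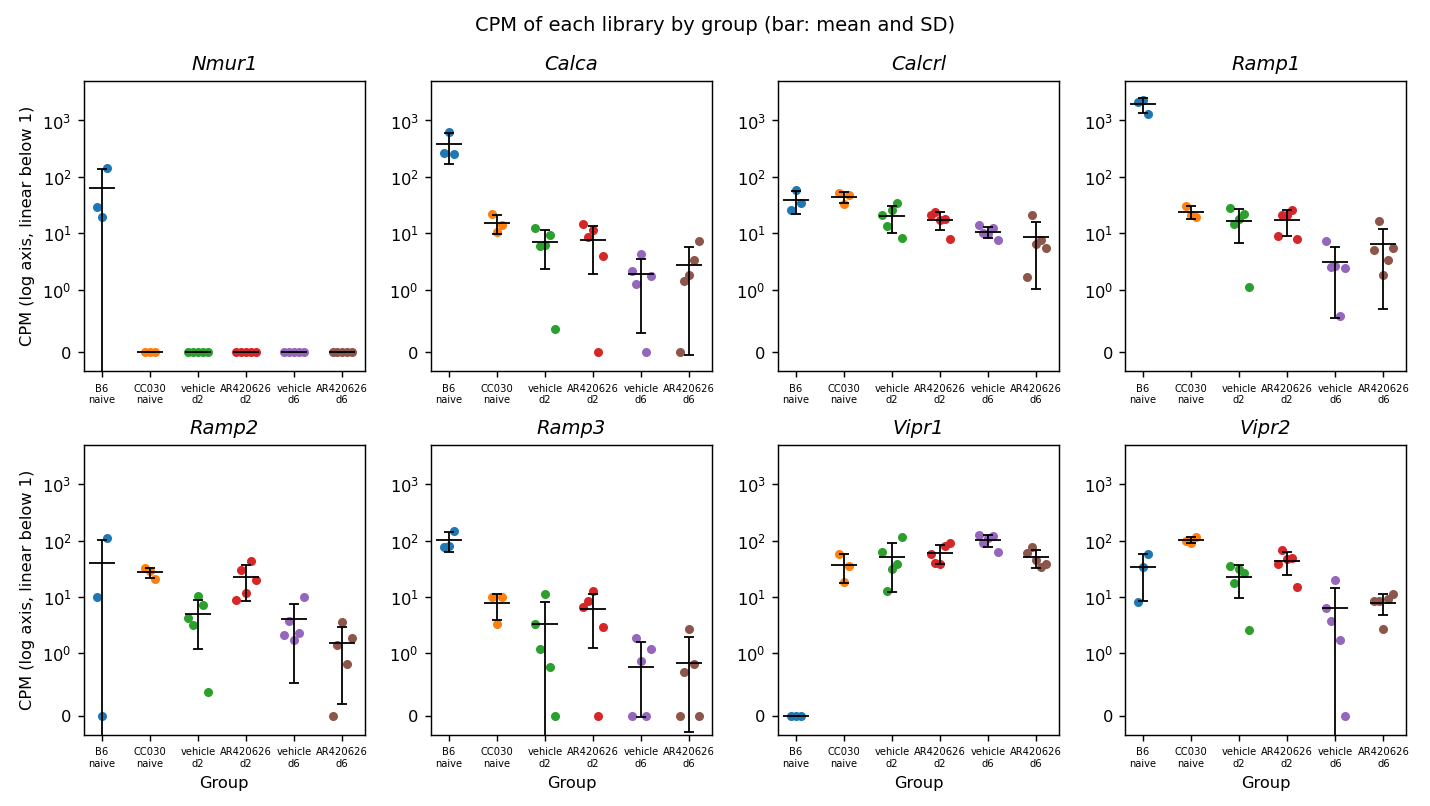
CPM of the 8 genes in every library, on a log axis that is linear below 1, for naive C57BL/6J (B6), naive CC030, and CC030 cultures with vehicle or AR420626 on days 2 (d2) and 6 (d6). Points are libraries and bars are means with SD, whose lower end runs off the axis where it is under 0. Nmur1 is at 0 in every CC030 group, and in the naive groups Ramp1, Calca and Ramp3 lie higher in C57BL/6J than in CC030. Naive and cultured groups come from different experiments and are not compared.

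Cultured cells were compared between AR420626 and vehicle of the same mouse. At day 6 the counts under Vipr1 were lower with AR420626 in 5 of 5 mice. The vehicle cultures of mice 1 to 5 had 240, 146, 125, 406 and 105 counts, or 127, 90.7, 109, 119 and 62.4 CPM. The AR420626 cultures had 71, 110, 49, 40 and 42 counts, or 59.2, 77.5, 44.3, 33.4 and 38.9 CPM. The means were 102 ± 25.8 and 50.6 ± 17.8 CPM (SD, n = 5), and the groups overlapped, since the vehicle culture of mouse 5 lay under the AR420626 culture of mouse 2. With mouse as a block, Vipr1 fell by 1.15 on the log2 scale (SE 0.25, adjusted p = 0.00222 in edgeR). Across 9421 genes tested, 1078 were called, 11.4% in all, 8.14% lower and 3.3% higher, beside 1 call among the 3 members tested. Scaling by total counts in place of TMM moved the split from 311 higher and 767 lower genes to 468 and 543, and Vipr1 stayed called at -0.97. That scaling moved the median log2 difference of all genes from 0.10 to 0.29 at day 6, from -0.22 to 0.73 at day 2 and from 7.03 to 8.12 between the strains. Without mice 4 and 5, a setting chosen after seeing the data, the fall was 0.91 (adjusted p = 0.0844 in edgeR), which did not pass. Any 1 mouse could be left out without losing the call (adjusted p = 0.00297 to 0.0299 in edgeR).

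**Figure D3:**
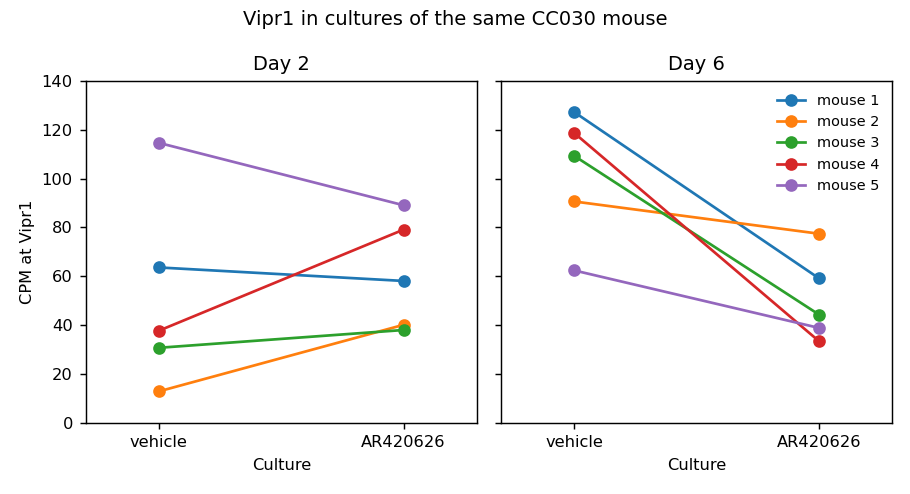
CPM under Vipr1 in vehicle and AR420626 cultures, with a line for each of 5 CC030 mice, on days 2 and 6. At day 6 all 5 lines fall, from 62.4 to 127 CPM in vehicle to 33.4 to 77.5 CPM in AR420626, and at day 2 they rise for 3 mice and fall for 2.

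The other members gave no call at day 6. Calcrl had 7.73 to 13.8 CPM in vehicle and 1.67 to 21.1 CPM with AR420626, and a log2 difference of -0.74 (SE 0.56, adjusted p = 0.409 in edgeR). Vipr2 had 0 to 20.1 CPM in vehicle and 2.71 to 11.1 CPM with AR420626, and a difference of 0.87 (SE 0.84, adjusted p = 0.523 in edgeR). Ramp1, Ramp2, Ramp3 and Calca had at most 23 counts in a day 6 library and, like Nmur1 at 0, did not pass the filter on low counts. With no filter, none of Ramp1 (0.68, SE 0.93), Ramp2 (-1.79, SE 1.21), Ramp3 (-0.08, SE 2.83) and Calca (0.23, SE 1.504) was called at day 6, on the log2 scale.

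At day 2, 5 members were tested and none was called, as for all 20865 genes tested (0% called in edgeR, 403 at an unadjusted p under 0.05, and 14 in DESeq2). Ramp2 had 5, 8, 12, 9 and 2 counts in vehicle (0.376 to 10.5 CPM) and 8, 35, 11, 10 and 20 counts with AR420626 (8.94 to 44.0 CPM), and was higher in 5 of 5 mice. Its log2 difference was 1.49 (SE 0.65, adjusted p = 1.00 in edgeR). Vipr2 CPM was also higher in 5 of 5 mice, but its TMM-scaled difference was 0.19 (SE 0.44). Vipr1 had 12.9 to 115 CPM in vehicle and 38.0 to 89.1 CPM with AR420626, and went up in 3 mice and down in 2. The test of the AR420626 effect at day 6 minus that at day 2 called 12 of 23141 genes (0.0519%), none of them a member. Its split of 9 higher and 3 lower turned to 4 and 7 under scaling by total counts. The difference for Vipr1 was -0.54 (SE 1.03) and for Ramp2 -3.34 (SE 1.16, adjusted p = 0.692 in edgeR).

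Between days 2 and 6 no member passed the test. In vehicle, 17.3% of 15819 genes were called, and Vipr1 was 2.51 higher at day 6 on the log2 scale (SE 1.02, adjusted p = 0.0975 in edgeR), in CPM in 4 of 5 mice. The exception was mouse 5, whose day 2 vehicle library had 610 counts under Vipr1 (115 CPM). That library differed in depth as well, with 5320028 counts in genes against 1139210 to 2563239 in the other day 2 vehicle libraries. Without mouse 5, 5376 genes were called in place of 2742. The Vipr1 difference was then 3.42 with adjusted p = 2.64e-06 in edgeR. In DESeq2, with all mice, it was 2.45 with adjusted p = 0.00442. It was 1.13 under scaling by total counts and 0.61 without the mouse block (adjusted p = 0.154 and 0.714 in edgeR), and 3.15 without mice 4 and 5 (adjusted p = 8.47e-07 in edgeR). The CPM of Vipr2 and of Calcrl were lower at day 6 in 5 of 5 mice, and that of Ramp1 in 4 of 5. The scaled differences were -1.29 for Vipr2 (SE 0.63), -1.35 for Ramp1 (SE 0.65) and 0.08 for Calcrl (SE 0.49). Calcrl was at -1.08 with adjusted p = 0.0237 in edgeR under the stricter filter of 10 counts in each library. Scaling by total counts moved the median of all genes from -0.33 to -1.46 in vehicle and the split from 2152 higher and 590 lower to 1275 and 745. With AR420626, 11.2% of 14731 genes were called. Vipr1 was 0.88 higher at day 6 (SE 0.48, adjusted p = 0.263 in edgeR), and without mouse 5 it was 1.495 higher with adjusted p = 0.0164. Under scaling by total counts the split turned from 1479 higher and 168 lower to 750 and 5402, Vipr1 was at -0.49, and Vipr2 was called lower at -2.65 (adjusted p = 0.0116 in edgeR). The AR420626 differences over time share no library with those of vehicle, but come from the same mice.

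The pathway lists were also counted at day 6, where 11.4% of all genes tested were called. Among 25 tested partners and transducers, counts under Crem, a cAMP-responsive transcription factor, were higher by 0.87 (SE 0.25, adjusted p = 0.0224 in edgeR). The other 24 were not called. Among 8 processing genes, counts under Cpd, a carboxypeptidase, fell by 1.11 on the log2 scale (SE 0.28, adjusted p = 0.00808 in edgeR). Gene positions were not checked around Crem and Cpd. None of 6 other receptors and not the 1 ligand gene tested was called. The medians of these lists were 0.47, 0.58, 0.56 and -0.10, against 0.10 for all genes tested. The summed ILC2 markers were 71.9 to 118 CPM in vehicle and 76.9 to 121 CPM with AR420626 at day 6.

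Over the 20 cultured libraries, the patterns most like those of the members were described by Pearson's r of log2 CPM among genes with a mean of at least 50 counts, with no test, since the libraries share mice, days and depth. Vipr1 (mean 119 counts) was most like Kmt5b (r = 0.899), Pkd2l1 (0.885) and Parp14 (0.878). Ramp1 was most like Dync1h1 (0.952), Stab1 (0.930) and Rasa2 (0.930), and Vipr2 like Xrn1 (0.922), Dnah14 (0.914) and R3hdm1 (0.903). Calcrl was most like Sptbn1 (0.828), Usp32 (0.799) and Mdm4 (0.797). The remaining members had under 10 counts on average.

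To see whether counts lie under the right names, levels of CC030 in 1 kb bins of exon within 4 Mb of each member were correlated with naive C57BL/6J levels taken at positions moved by up to 3 Mb. This is a description along the genome, and bins of one gene are not independent. Moves beyond 3 Mb were not searched, so a larger offset around a gene could not be found. In the naive CC030 libraries the correlation at no move was between -0.28 and 0.26, and the best moves were 0 kb for Calcrl (r = 0.262) and 101 kb for Ramp3 (r = 0.236). For the other 6 members the best r was at most 0.235. In the day 6 vehicle libraries the best move was sharper. It was 90 kb for Vipr1 (r = 0.379, against -0.049 at no move), 139 kb for Ramp2 (0.386 against 0.032), 100 kb for Ramp3 (0.314 against 0.133) and -1239 kb for Vipr2 (0.468 against -0.005). For Ramp1 it was -1896 kb (0.357 against -0.133). Day 6 AR420626 libraries gave the same moves within 1 kb for these 5 genes. For Calcrl the best move of 160 kb raised r only from 0.207 to 0.281. For Calca (-1817 kb, r = 0.338) and Nmur1 (-1891 kb, r = 0.269) the peak was one among several of like height. With 8 Mb to each side, vehicle libraries gave -1849 kb for Calca (r = 0.182) and -1897 kb for Nmur1 (r = 0.246). The latter is also the place of Ramp1, on the same chromosome, in that window. For Nmur1, AR420626 libraries gave -1897 kb in that window (r = 0.215) but 2867 kb within 4 Mb (r = 0.266). No single move was settled for either gene.

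**Figure D4:**
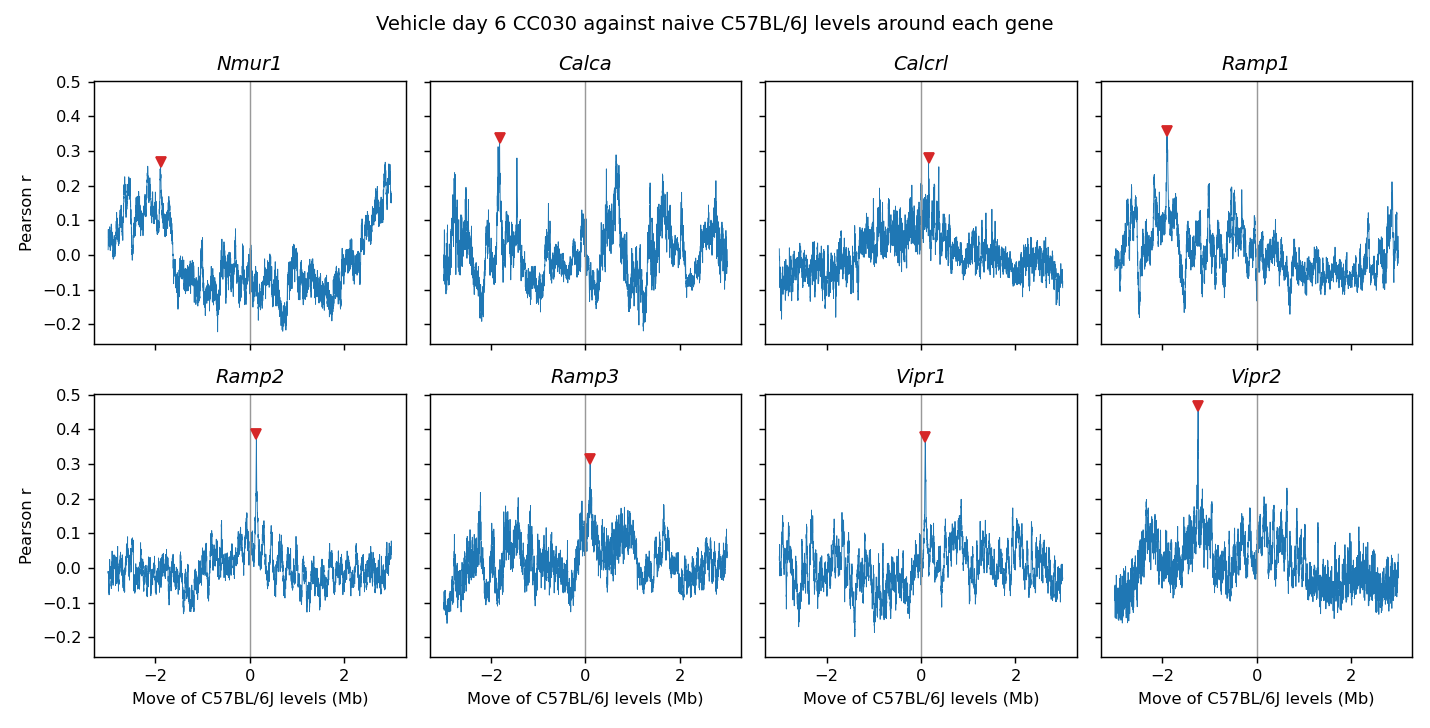
Pearson's r between day 6 vehicle CC030 levels and naive C57BL/6J levels in exonic 1 kb bins around each gene, against the move of the C57BL/6J levels in Mb. The triangle marks the best move and the grey line no move. Ramp2, Vipr1, Vipr2 and Ramp1 have a single sharp peak away from 0, and Nmur1, Calca and Calcrl do not.

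With the move of 90 kb, exons of Nktr (62.3 CPM in naive C57BL/6J), of E530011L22Rik (22.3 CPM) and of Zfp651 (0.0493 CPM) lay within 1 kb of where the exons of Vipr1, at 0 in C57BL/6J, would be matched. By the same move, reads of Vipr1 would be counted within 1 kb of the exons of Lyzl4. Lyzl4 had a mean of 26.1 CPM in vehicle and 73.5 CPM with AR420626 at day 6, in the other direction from the counts under Vipr1. These are group means given without a test. Whether Vipr1 transcripts changed with AR420626 was not tested. Reads of Ramp1 would be counted near exons of Kif1a, and reads of Ramp2 near exons of Tubg1 and Retreg3. If the move of -1891 kb held for Nmur1, its name would be matched near exons of Dner, at 0 CPM in naive C57BL/6J. Its reads would be counted near exons of Hjurp and Trpm8, at 62.2 and 81.8 CPM in naive CC030. Whether the CC030 cells lack Nmur1 transcripts was not tested. The fall of the counts under Vipr1 at day 6 is therefore given as a fall at that position and not as one of Vipr1 transcripts.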

How the data were processed

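The series holds bulk RNA-seq of lung ILC2s, naive or cultured, prepared with a SMART-Seq v4 kit, which does not mark strand. Per the labels and the study's methods, the authors trimmed reads with fastp, aligned them with STAR and counted them per gene with HTSeq. The deposited values are raw counts, whole numbers that were neither normalized nor filtered. C57BL/6J reads were aligned to mm10, and CC030 reads to an mm9 pseudogenome and then converted with lapels to mm10. The annotation and strand setting of the counting are not given in the sources used here.

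Groups came from the labels. Symbols, positions and exon lengths were taken from GENCODE vM21 on GRCm38 for 55141 of 55401 identifiers, and promoters from RefSeq. The 5 summary rows of HTSeq were left out of library totals and tests, and took the reads that were not assigned to genes: 2.66% to 12.3% of uniquely aligned reads of the cultures fell in genes. Counts were divided by the total in genes to give CPM. Genes passing filterByExpr (minimum count 10, minimum total 15) were scaled by TMM and tested with edgeR 4.0.16 in R 4.3.3 by the quasi-likelihood test, with Benjamini-Hochberg adjustment over all genes at 0.05. Mouse was a block in cultured comparisons, since vehicle and AR420626 cultures came from the same mice. The correlations of same-mouse deviations between treatments were -0.18 to 0.33 at day 2 and -0.08 to 0.33 at day 6. A group at 0 was given a floor of 3 counts per library. Intervals and floors cover counting error only. The test was also run on simulated counts, where it found fewer of the changes set in advance between the strains than at day 6. A gene not called between the strains is therefore not shown to be alike in them. The position check used 1 kb bins, a pseudocount of 0.1 per kb and Python 3.11.15.

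Alternatives were DESeq2 1.42.0, its size factors, other filters, the block, each replicate left out, another gene length and window, and, added after seeing the data, scaling by total counts and leaving out mice 4 and 5. The members and gene lists were chosen with earlier results of these data known. Named genes are all members, up to 4 of each list with the smallest p or, in C57BL/6J, the highest level, the 3 genes most like each member, and neighbours from the position check. List genes at 0, and Gpr35 and Adm, were named after their values were seen.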

Additional observations from a re-analysis of the deposited data

Results flagged for a closer look

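Among 28 groups of 5 cultured libraries and a member with a count, 2 held a library far from the other 4, and chance alone flags about 1 in 20 such groups. For Ramp1 in the day 6 AR420626 cultures, mouse 2 was at 16.2 CPM and the next library at 5.55 CPM. For Ramp2 in the day 6 vehicle cultures, mouse 5 was at 10.1 CPM and the next library at 3.73 CPM. Both rest on few counts, 23 for Ramp1 and 17 for Ramp2, and neither gene passed the filter on low counts for the day 6 test.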

How the results depend on the processing

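For the log2 differences of the members, 281 repeats under other settings kept the direction and the side of the threshold, 31 changed sign, 9 gained a call and 1 lost it. The calls of Calca, Ramp1 and Ramp3 between C57BL/6J and CC030 held in every setting that gave a value for them. Those of Nmur1 and Vipr1 held too, but with no count in 1 strain their directions could not change. Depth limits the CC030 values, since most members had under 50 counts in a cultured library. The cause of the changes below was not tested.

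Genes called, with at least 10 counts in every library, numbered 3573 between the strains (1635 higher and 1938 lower), where fewer genes were tested, and 6 for the change of the AR420626 effect between days. With DESeq2 they numbered 14 for AR420626 at day 2, 75 for the change of effect and 2806 for day 6 against day 2 with AR420626. With no filter on low counts they numbered 15 at day 2 and 20 for the change of effect. Without mice 4 and 5 they numbered 361 for AR420626 at day 6, 59 for the change of effect, 4337 for day 6 against day 2 in vehicle and 3458 with AR420626. Scaling by total counts gave 6152 for day 6 against day 2 with AR420626. Leaving out 1 mouse at a time gave 604 (mouse 1) to 1221 (mouse 3) at day 6, 0 (mouse 1) to 33 (mouse 5) for the change of effect, 994 (mouse 4) to 5376 (mouse 5) for the days in vehicle and 253 (mouse 3) to 2772 (mouse 5) with AR420626. Leaving out 1 naive library gave 23067 to 24411 between the strains.

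Without the mouse block, which pairs cultures of the same mouse, 2 genes were called for the change of effect, where Vipr1 turned to 0.32 and Vipr2 to -0.16, and Calcrl turned to 0.0216 between days with AR420626. The block changed no other call of a member. Between the strains the shared replicate numbers did not pair the libraries (correlations of deviations 0.00876, 0.0119 and -0.0138), and with a replicate block Ramp2 turned to 0.64 and 26602 genes were called.

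Under scaling by total counts, Calcrl turned to 0.20 between the strains, -0.29 for the change of effect and -0.95 between days in vehicle, Ramp1 to 0.45 and Vipr1 to 0.55 at day 2, Vipr1 to -0.49 between days with AR420626, and Vipr2 to -0.0017 for the change of effect. Without mice 4 and 5, the change of effect turned to -1.17 for Calca, -0.11 for Calcrl and -0.996 for Vipr2. In that setting Calcrl was at 0.0857 between days with AR420626, Vipr1 at 0.0124 at day 2 and Vipr2 at -0.37 at day 6. With at least 10 counts in every library Calcrl was at -1.08 between days in vehicle. With 1 library left out, signs changed for the change of effect in Calca (-0.0523 to 1.64), Calcrl (-0.48 to 0.69), Vipr1 (-1.71 to 0.27) and Vipr2 (-0.64 to 0.99). They also changed for Calcrl between days in vehicle (-0.27 to 0.67) and with AR420626 (-0.25 to 0.20), Vipr1 at day 2 (-0.70 to 0.12), and Ramp2 (-2.15 to 0.81) and Vipr2 (-0.15 to 0.60) between the strains.

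With the longest transcript as length, Calca was at 386 and Ramp1 at 826 CPM per kb, and the ranges of their C57BL/6J libraries overlapped. In the position check with naive CC030, a window of 8 Mb to each side moved the best place to 2008 kb for Calca, -2656 kb for Ramp1 and 204 kb for Ramp2. Day 6 vehicle libraries gave -1891 kb for Nmur1, -1817 kb for Calca, 160 kb for Calcrl, -1896 kb for Ramp1, 139 kb for Ramp2, 90 kb for Vipr1 and -1239 kb for Vipr2, where the naive libraries had other places.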
